A study of Homo sapiens with 2 samples.

Results

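The 10 genes described here are the transcription factors that drive epithelial-mesenchymal transition (EMT), SNAI1, SNAI2, ZEB1, ZEB2, TWIST1 and TWIST2, and the markers by which EMT is usually read, CDH1, CDH2, VIM and FN1. They were chosen by gene symbol and not by their values, and every probe for them was kept, which gave 10 of the 30482 gene names on the array, 15 of its 41000 probes and 33 of its 43376 spots. The RNA came from SAS cells, an established line of human squamous carcinoma of the tongue, and from eSAS cells, the population left after SAS cells had passed through 5 rounds of selection for large spheroids on a removable mesh. RNA was taken in the log phase of growth, the labels give DMEM with fetal bovine serum for both populations, and no drug or engineered gene change is named for either. eSAS is a selected derivative of 1 cell line. Each population was read on 1 single-colour array, so there is no replicate, no test between the cells is possible, and every difference below is a value from 2 hybridisations.

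EMT is the process by which epithelial cells loosen their junctions and take on features of migratory mesenchymal cells. SNAI, ZEB and TWIST proteins bind E-box sequences, and SNAI and ZEB proteins are known to repress CDH1, which encodes the adhesion protein E-cadherin. Cells that pass through EMT typically lose E-cadherin and gain N-cadherin (CDH2), the intermediate filament protein vimentin (VIM) and the matrix protein fibronectin (FN1), and carcinoma cells often show only some of these changes.

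Values are processed signals, the linear scanner intensities after background subtraction, each with the error that the scanner software estimated for the spot. Differences are log2 ratios of eSAS to SAS after each array was divided by its own 75th percentile, 1242 for SAS and 1196 for eSAS. A probe that the software did not rate well above background gives only an upper limit there. Of the 15 probes, 11 were well above background on both arrays and 4 on neither, so that 8 of the 10 genes had a measured difference. Replicate spots of a probe differed in their log2 ratio with an SD of 0.075 (211 probes), and probes for the same gene with an SD of 0.20 (5334 genes). Both are technical spreads within these arrays and leave out the variation between cultures. In RNA from bulk cells, fewer cells of a type and less RNA per cell cannot be told apart.

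Of the 11 measured probes, 1 was at least 2-fold higher in eSAS cells, where 1.83% of all 28439 probes tested were, and that probe was for CDH2. None of the 11 was at least 2-fold lower, where 1.97% of all probes were. The other 10 stayed within 2-fold, with log2 ratios from -0.73 for SNAI2 to 0.34 for TWIST1. On the epithelial side the E-cadherin RNA was 1.39-fold lower in eSAS cells, and on the mesenchymal side the N-cadherin RNA was 2.70-fold higher while vimentin and fibronectin RNA were lower. By gene, SNAI1, TWIST1 and CDH2 had ratios above 0, and SNAI2, TWIST2, CDH1, VIM and FN1 had ratios below 0. The median log2 ratio of the 11 probes was -0.22, beside -0.0039 for all 26659 probes well above background on both arrays. Those probes had an SD of 0.36, and 50.8% of them lay below 0.

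**Figure D1:**
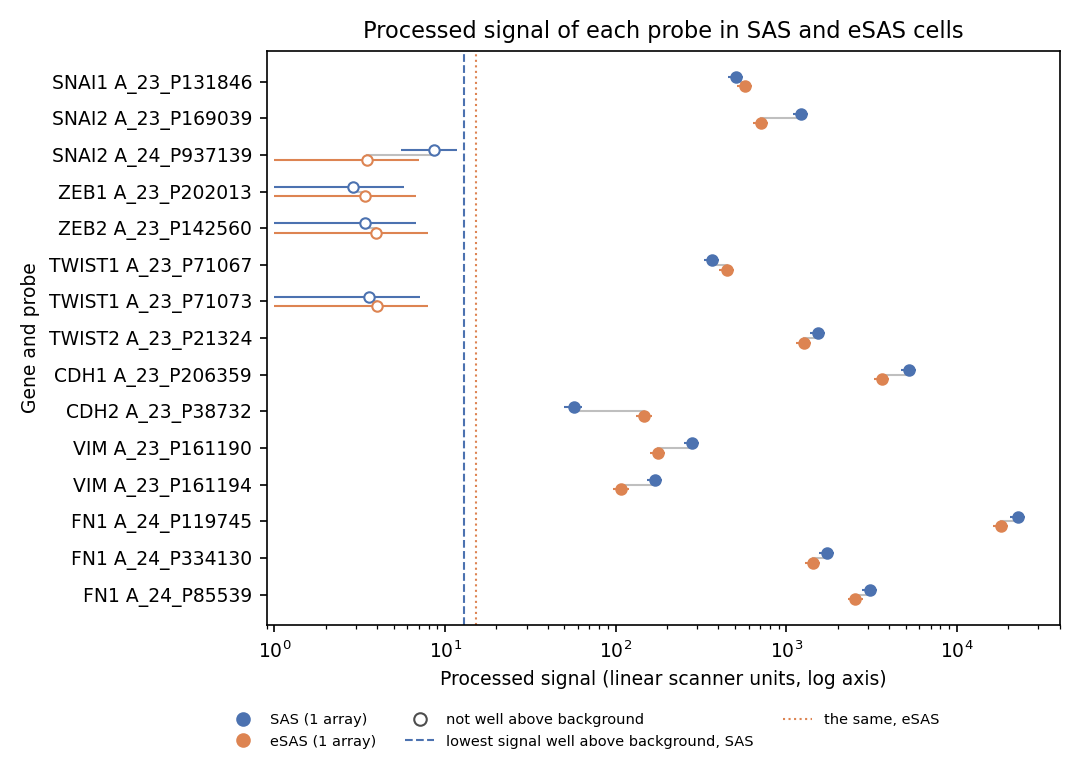
Processed signal (linear scanner units on a log axis) of the 15 probes in SAS and eSAS cells. Points are single spots or the mean of replicate spots, bars are the software's error (lower ends stop at 1), and open points mark the 4 probes that were not well above background on either array, all left of the lines for the lowest signal well above background (12.8 for SAS, 15.2 for eSAS).

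SNAI1, the zinc finger protein Snail, was measured by 1 probe (hg18, chromosome 20 from 48038577 to 48038636). SAS cells gave 505 ± 50.6 and eSAS cells 575 ± 57.6. The log2 ratio was 0.24, or 1.18-fold higher in eSAS cells, which is above the SD of replicate spots and within the SD of all probes.

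SNAI2, the related protein Slug, had the lowest log2 ratio of the 11 probes. SAS cells gave 1219 ± 122 and eSAS cells 708 ± 70.9. The log2 ratio was -0.73, or 1.66-fold lower in eSAS cells. Only 3.92% of all probes tested lay at or below it, and so did 80 of the 3185 probes of like brightness. The 6 measured spots next to it on the array had a median log2 ratio of -0.08. A second SNAI2 probe, designed to a partial coding sequence, had signals of 8.60 in SAS and 3.50 in eSAS cells. Neither was well above background, and this probe adds nothing on the direction.

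ZEB1 and ZEB2, large factors with zinc finger clusters and a homeodomain, were not detected in either population. The ZEB1 probe (chromosome 10 from 31852945 to 31853004) had signals of 2.89 and 3.40 on the SAS and eSAS arrays. The ZEB2 probe (chromosome 2 from 144862731 to 144862790) had signals of 3.37 and 3.95. The lowest signals well above background were 12.8 for SAS and 15.2 for eSAS, and no ratio is given for either gene. These probes put only an upper limit on the RNA, and each gene had 1 probe.

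TWIST1 and TWIST2 are basic helix-loop-helix factors, and their ratios had opposite signs. The TWIST1 probe on chromosome 7 from 19122025 to 19122084 had a processed signal of 367 ± 36.8 in SAS cells and 447 ± 44.8 in eSAS cells. This is a log2 ratio of 0.34, or 1.27-fold higher in eSAS cells. Another TWIST1 probe, from 19122170 to 19122229 and designed to the same transcript, was not well above background on either array, with signals of 3.59 and 3.96. The difference for TWIST1 therefore rests on 1 spot per array. TWIST2 had a processed signal of 1532 ± 153 in SAS cells and 1263 ± 126 in eSAS cells. Its log2 ratio was -0.22, or 1.17-fold lower in eSAS cells.

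**Figure D2:**
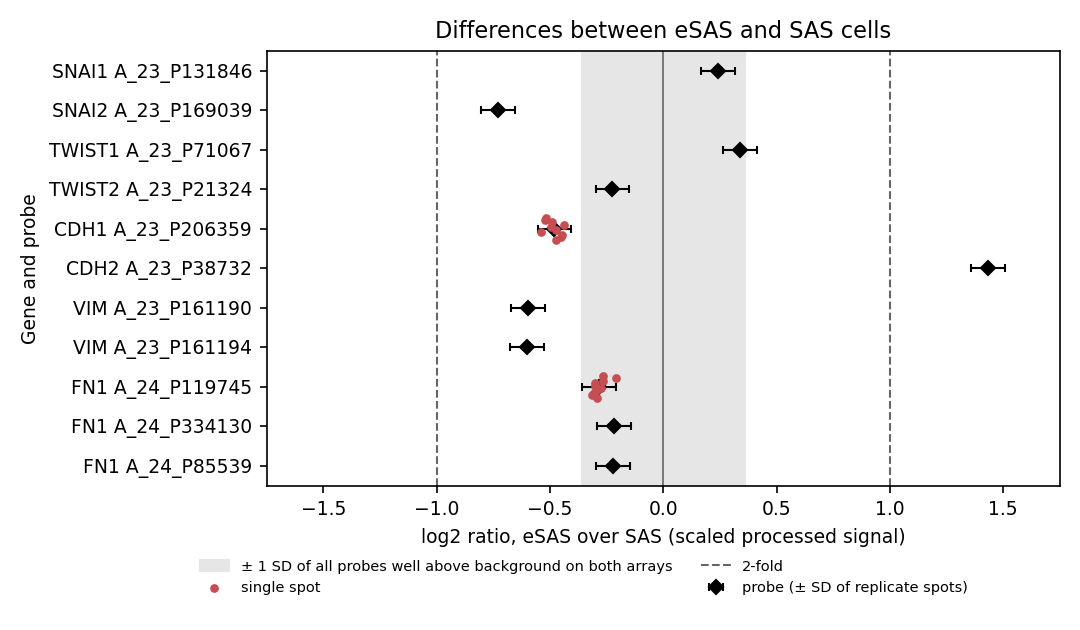
Log2 ratio of eSAS to SAS for the 11 probes measured on both arrays. Diamonds are probes with the SD of replicate spots over all replicated probes (0.075) as bars, and red points are the 10 single spots of CDH1 and of 1 FN1 probe. The grey band is 1 SD of all probes (0.36), and dashed lines mark 2-fold, which CDH2 alone passes. Bars and band are the same at every brightness, and probes of like brightness to CDH2 had an SD of 0.49.

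The CDH1 probe was printed 10 times on each array (chromosome 16 from 67426715 to 67426774), as was 1 of the FN1 probes. The processed signals ran from 4828 to 5613 in SAS cells, with a median of 5263. In eSAS cells they ran from 3240 to 3992, with a median of 3637. These ranges and medians hold all 10 spots. Before scaling, every eSAS spot was below every SAS spot, and how often other replicated probes did the same was not computed. The log2 ratio was -0.48 ± 0.033 (SD of 9 spots, with 1 spot left out that the software marked as an outlier), or 1.39-fold lower in eSAS cells. Among all probes tested, 8.37% lay at or below this value. The spots share 1 RNA sample per population, so their SD does not include the spread between cultures.

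CDH2, which encodes N-cadherin, was the only one of the 10 genes past 2-fold, and its signals were low. Its probe (chromosome 18 from 23786079 to 23786138) gave 56.6 ± 6.94 in SAS cells and 147 ± 15.4 in eSAS cells. The log2 ratio was 1.43, or 2.70-fold higher in eSAS cells, at percentile 99.2 of all probes tested. Of 2799 probes of like brightness, 29 were at least as high, and the SD of their log2 ratios was 0.49. The 6 measured spots next to it had log2 ratios from -1.60 to 0.55 with a median of -0.26. The mean pixel intensity before background correction was 89.8 in SAS and 162 in eSAS cells, over local backgrounds of 26.0 and 28.0. How much is subtracted thus matters for this value. Without background correction the log2 ratio was 0.90. It was 0.67 with another background model (normexp, fitted without spots of marked local background, with an offset of 50 added to every value). Under both settings it was positive and below 2-fold. Background left in, or an offset added, moves the ratio of a dim probe toward 0. These 2 settings therefore cannot decide whether CDH2 passed 2-fold.

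Both VIM probes gave nearly the same lower ratio. The probe on chromosome 10 from 17317191 to 17317250 had signals of 170 ± 17.2 in SAS cells and 108 ± 11.3 in eSAS cells, a log2 ratio of -0.60, or 1.52-fold lower. The probe that covers 910 bases of the genome from 17318353 to 17319262, and so joins sequence from separate exons, had signals of 278 ± 28.0 and 177 ± 18.1. Its log2 ratio was also -0.60, or 1.51-fold lower. At a limit of 1.5-fold these probes and SNAI2 were the 3 of 11 that counted as lower, where 6.12% of all probes did, and CDH2 alone counted as higher, where 4.43% did. The sign of both VIM ratios held under all background models but 1, a normexp fit to all spots. There they were 1.43 and 1.11, and the median of all probes was itself displaced to 0.53. That fit put the background mean of the eSAS array at -773, so it says nothing on the direction of VIM.

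FN1 was measured by 3 probes, and all had ratios below 0. The probe printed 10 times (chromosome 2 from 215934577 to 215934978) had signals from 21554 to 25843 on the SAS array, with a median of 22508. On the eSAS array they ran from 17085 to 20321, with a median of 17686. The log2 ratio was -0.28 ± 0.031 (SD of 10 spots), or 1.22-fold lower in eSAS cells. Before scaling the spots did not overlap between the arrays, and how often this held for other replicated probes was not computed. These spots too share 1 RNA sample per population. A second probe, from 215943371 to 215944906, had signals of 3074 and 2541 and a log2 ratio of -0.22. The third was designed to a shorter transcript variant and lies from 215996462 to 215997140. It had signals of 1730 and 1435 and a log2 ratio of -0.22. The 3 probes thus differed among themselves by less than the SD between probes of the same gene.

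Of the 33 spots, 3 lay in rows 450 to 510, which hold 183 of the 194 spots that the software marked as non-uniform on the SAS array, and these were 2 CDH1 spots and 1 FN1 spot. None of the 33 was marked non-uniform, and none was saturated. Without those rows the count past 2-fold was again 1 higher and 0 lower.

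**Figure D3:**
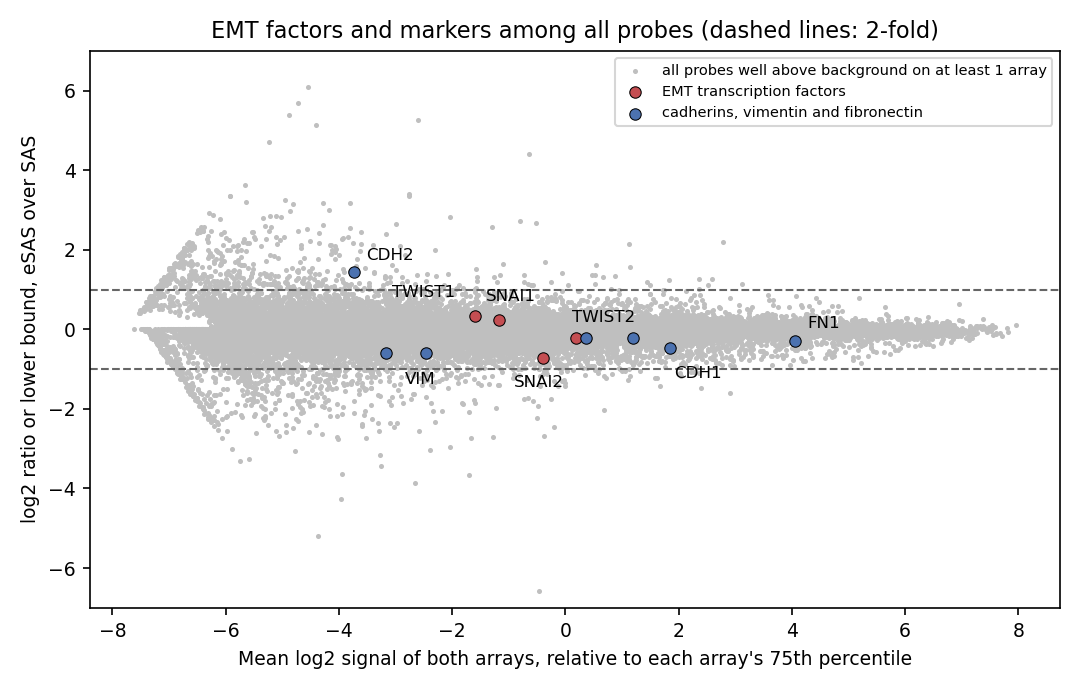
Log2 ratio (or lower bound, for probes well above background on 1 array only) of eSAS to SAS against the mean log2 signal of both arrays relative to each array's 75th percentile, for 28439 probes, with the measured EMT factors and markers in colour. CDH2 lies above the upper 2-fold line at the dim end (log2 ratio 1.43), and the 10 other probes lie between the dashed lines.

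Because the EMT factors bind E-boxes, the RefSeq sequence of the 250 bases before annotated start sites (GRCh38.p14) was searched for CANNTG, which reads the same on both strands, and for the form CACCTG or CAGGTG. Windows were held for 6 of the 10 genes (ZEB1, ZEB2, TWIST2, CDH2, VIM and FN1), 13 windows in all, of which 7 belong to ZEB1 alone. CANNTG occurred in 6 of the 13 windows, beside 61.8% of all 35116 windows of this length. CACCTG or CAGGTG, which is a subset of it, occurred in 2, both of ZEB1, beside 17.5% of all windows. The windows of CDH2 and VIM are printed because these genes had the highest and the lowest ratio among those with a window. They lie at chr18:28177131-28177380 and chr18:28036642-28036891 (both minus strand) and at chr10:17227991-17228240 (plus strand), and capitals mark an E-box.
CDH2, upstream start site: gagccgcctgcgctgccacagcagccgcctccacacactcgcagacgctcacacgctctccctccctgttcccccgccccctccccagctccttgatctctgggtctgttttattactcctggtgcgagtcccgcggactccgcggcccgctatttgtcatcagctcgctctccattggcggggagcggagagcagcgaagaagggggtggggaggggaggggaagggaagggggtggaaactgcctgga
CDH2, downstream start site: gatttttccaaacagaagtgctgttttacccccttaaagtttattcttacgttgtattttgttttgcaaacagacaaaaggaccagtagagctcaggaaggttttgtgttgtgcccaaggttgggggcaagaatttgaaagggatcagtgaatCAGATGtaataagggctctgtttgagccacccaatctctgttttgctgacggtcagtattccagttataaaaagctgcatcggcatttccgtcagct
VIM: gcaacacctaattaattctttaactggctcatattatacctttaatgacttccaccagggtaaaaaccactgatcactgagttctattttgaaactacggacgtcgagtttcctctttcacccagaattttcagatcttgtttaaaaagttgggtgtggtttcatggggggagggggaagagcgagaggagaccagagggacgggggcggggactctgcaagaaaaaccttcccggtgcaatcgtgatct
The second CDH2 window holds CAGATG, which begins at position -97 counted back from the start site. The first CDH2 window and the VIM window hold no CANNTG. The arrays do not say which CDH2 start site was used, and a match is a description of the letters and not of binding.

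Another 10 lists of genes around EMT were read in the same way, with 159 of their 161 genes on the array. Of 202 probes tested, 3 (1.49%) passed 2-fold upward in eSAS cells and 7 (3.47%) downward, beside 1.83% and 1.97% of all probes. The median log2 ratio of the 189 probes measured on both arrays was -0.0090.

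Among other transcription factors linked to EMT, 17 probes were tested, with 0 higher and 1 lower. GSC, the homeodomain factor goosecoid, had signals of 109 in SAS cells and 28.0 in eSAS cells, 3.76-fold lower, and a second GSC probe was not well above background on either array. TCF4 was above background in SAS cells only, with a signal of 36.2, and at least 1.88-fold lower in the eSAS population. At the other end SNAI3, the third Snail family member, had signals of 49.6 and 68.6 and a log2 ratio of 0.52. The list median was -0.10, and PRRX1 was not detected. Factors of the epithelial state, such as the splicing regulators ESRP1 and ESRP2 and the OVOL and GRHL factors, had 18 probes tested and none past 2-fold. Their ratios ran from -0.61 for EHF to 0.41 for GRHL1, with a median of -0.06. The EHF spot lay in row 491, within rows 450 to 510, and GRHL1 was dim, with signals of 20.6 and 26.4. Partners and turnover factors of the EMT proteins had 29 probes tested and none past 2-fold, from -0.53 for LOXL2 to 0.27 for FBXL14, with a median of -0.04.

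A list of junction, keratin and polarity genes of epithelia centred slightly above 0, while the squamous epithelium markers given further on lay below 0, as CDH1 did. Of the 45 probes tested in this list none passed 2-fold, 33 had ratios above 0 and 12 below, and the median was 0.11. The highest were MAL2, a protein of apical transport, with signals of 20450 in SAS cells and 33943 in eSAS cells (log2 ratio 0.79), and the tight junction protein CLDN7, with 4416 and 7310 (log2 ratio 0.78). The tight junction protein CLDN1 had 2 probes with log2 ratios of 0.66 and 0.48. The lowest was DSP, which encodes desmoplakin, at -0.29. The catenins and other anchors of cadherins had 12 probes tested and none past 2-fold, from -0.27 for VCL to 0.13 for JUP, with a median of -0.08.

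Genes of the mesenchymal state went both ways. Of 24 probes tested, 2 were higher by 2-fold or more and 3 lower, and the list median was -0.13. CDH11, a mesenchymal cadherin, had signals of 194 in SAS cells and 28.5 in eSAS cells, 6.55-fold lower. The matrix protein TNC had signals of 763 and 326, 2.25-fold lower. MMP2, a matrix protease, had a signal of 45.1 in SAS cells and was not well above background in eSAS cells, at least 2.85-fold lower. LOX, the collagen cross-linking enzyme, was higher, with signals of 149 and 333 over 10 spots, or 2.33-fold. LUM was not well above background in SAS cells and had a signal of 29.6 in eSAS cells, at least 2.40-fold higher, from a spot in row 461 and thus within rows 450 to 510. Several classical mesenchymal genes, COL1A2, COL3A1, DCN, FBN1, PDGFRB, POSTN and WNT5A, were not detected in either population.

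Among the cadherins other than CDH1 and CDH2, 14 probes were tested, 0 were higher and 3 were lower. Beside CDH11 these were CDH19, with a signal of 44.7 in SAS cells and at least 2.83-fold lower, and CDH7, with 33.5 and at least 2.12-fold lower. Both had another probe that was not well above background on either array. The highest ratio was that of a CDH24 probe, with signals of 219 and 271 (log2 ratio 0.36). A much brighter CDH24 probe had signals of 21090 and 19581 and a log2 ratio of -0.05. CDH3, the P-cadherin of basal epithelium, had signals of 18111 and 16843 and a log2 ratio of -0.05. With the deposited background correction, CDH2 was thus the only one of CDH1, CDH2 and the 19 listed cadherins with a probe at least 2-fold higher. Of those 19, 8 had no probe well above background. The receptors of fibronectin had 15 probes tested and none with a ratio or bound past 2-fold. The 14 measured on both arrays ran from -0.33 for ITGAV to 0.36 for SDC4, with a median of -0.14. ITGB6 was above background in SAS cells only, with a signal of 23.2, at least 1.34-fold lower in eSAS cells. Intermediate filament genes related to VIM had 6 probes tested and none with a ratio or bound past 2-fold. The 5 measured on both arrays ran from -0.65 for SYNM to 0.28 for PRPH, with a median of -0.23. DES, which encodes desmin, had a signal of 29.0 in SAS cells and was not well above background in eSAS cells, at least 1.84-fold lower.

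The TGF-beta pathway, a known inducer of SNAI and ZEB genes, had 23 probes tested, 1 higher, 1 lower and a median of 0.0063. The ligand gene TGFB3 had signals of 28.1 in SAS cells and 74.3 in eSAS cells, 2.74-fold higher. A second TGFB3 probe was not well above background on either array. ID2, an inhibitor of helix-loop-helix factors and a target of the related BMP signal, had signals of 43.9 and 19.5 on one probe, 2.17-fold lower, and 100.0 and 52.3 on the other, a log2 ratio of -0.88. The inhibitory SMAD7 had signals of 913 and 495, a log2 ratio of -0.83. Of the 10 probes past 2-fold in these lists, 2, namely CDH11 and TNC, remained so under the normexp fit without spots of marked local background. CDH11 was itself dim in eSAS cells, with a signal of 28.5. The rest had signals near the background on at least 1 array or, for LOX, a log2 ratio of 0.92. The offset of 50 in that fit lowers the ratios of dim probes, so it cannot decide whether they passed 2-fold.

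**Figure D4:**
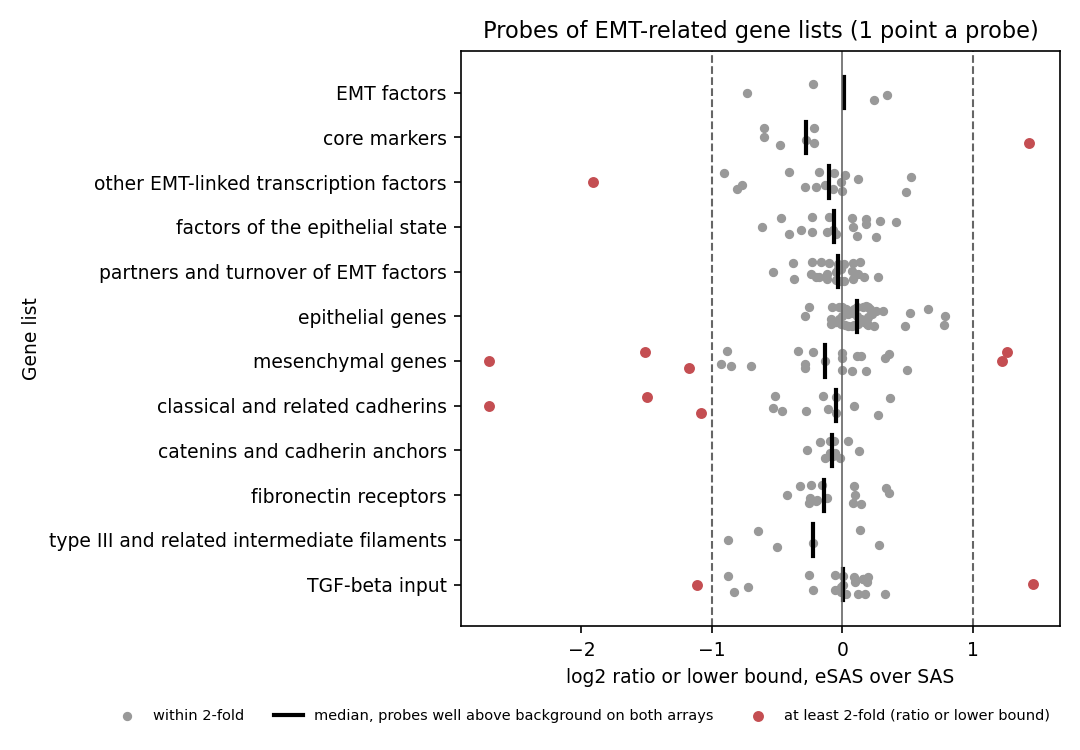
Log2 ratio or lower bound of eSAS to SAS for each probe well above background on at least 1 array, by gene list, with the list median as a black bar and probes past 2-fold in red. The epithelial genes centre slightly above 0 (median 0.11) and the core markers below it (median -0.28), and the red points lie on both sides.

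The identity of the cells was read from markers. All 8 genes of the squamous epithelium list were detected in both populations, and all 10 of their probes had ratios below 0, with a median of -0.57. Their summed signal was 62146 for SAS and 34800 for eSAS. The 2 probes past 2-fold were both for KRT14, a keratin of basal cells, and they differed in size, with log2 ratios of -6.58 and -1.23. These ratios had the same sign as those of CDH1, VIM and SNAI2, and their part in those values was not tested. Of the fibroblast markers 2 of the 7 genes on the array were above background on 1 array each (COL1A1 in SAS and LUM in eSAS cells), and the summed signal of that list was 75.6 and 84.7. COL1A2, COL3A1, DCN, PDGFRA and PDGFRB were not detected. The endothelial list had 2 of 6 genes above background and summed signals of 127 and 115. These were VWF, with signals of 86.0 and 77.1, and CDH5, above background in SAS cells only, while PECAM1, KDR, TEK and TIE1 were not detected. The leukocyte list had 3 of 8 genes and summed signals of 1730 and 1755. CSF1R had signals of 769 and 731, CD68 of 717 and 752, and CD14 of 215 and 233, while PTPRC, CD3D and CD3E were not detected.

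**Figure D5:**
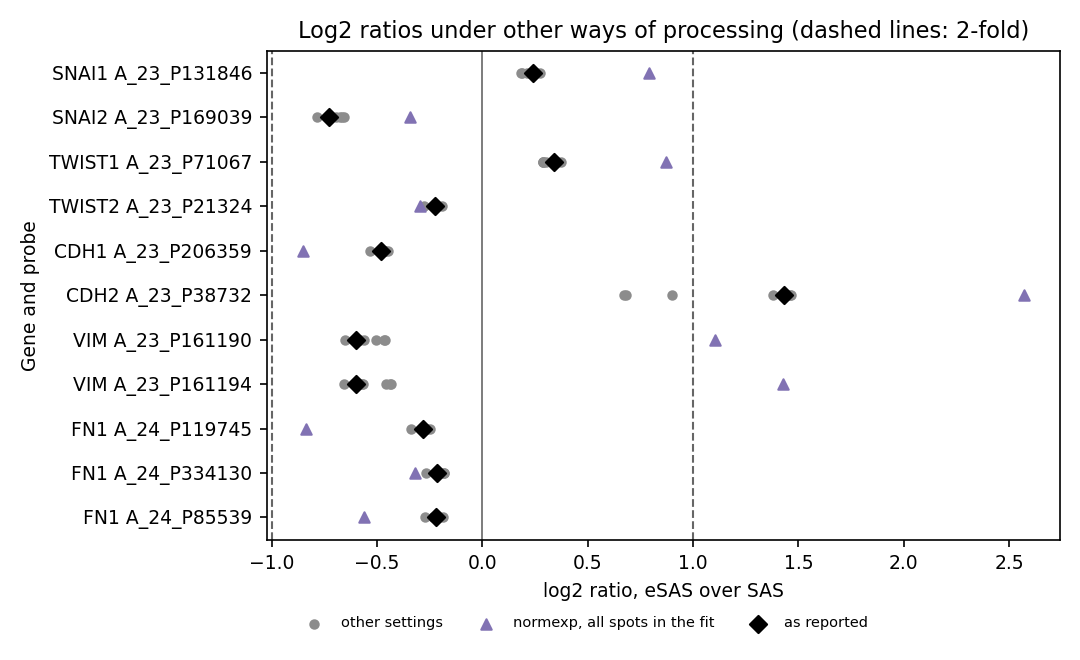
Log2 ratio of eSAS to SAS for the 11 measured probes as reported (diamonds), under 11 other ways of processing (grey points) and under the normexp fit to all spots (triangles). Grey points keep the sign for all 11 probes, CDH2 runs from 0.67 to 1.47 among them, and both VIM probes change sign only at the triangle.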

How the data were processed

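Total RNA from 1 sample of SAS cells and 1 of eSAS cells was labelled with Cy3 and hybridised to 1-colour arrays. The authors deposited the output of Agilent Feature Extraction 10.7.3.1 per array. Its intensity values, also as deposited, are linear, background-subtracted and corrected for spatial trends, but not scaled between arrays. The deposited table of the series was equal to the processed signal. Further scaling or filtering by the authors is not given in the sources used here.

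Processed signals were divided by their array's 75th percentile and put on the log2 scale, and replicate spots were averaged per probe. No control spot was used. Probe ratios and calls left out any spot with the software's mark for a population outlier or non-uniformity. The 75th percentiles, the adjacent spots, and the signal ranges, medians and plotted points of CDH1 kept marked spots. More than 50 percent of a probe's spots had to be well above background for the probe to count as such. Where it did so on 1 array only, the dim value was raised to the lowest signal rated well above background, unless it was already higher, and the fold is a lower bound. The call was a fold or bound of at least 2. Probes of like brightness lie within 0.5 log2 units, and neighbours are the 8 adjacent spots. Of 41000 probes, 23958 were named by RefSeq accession (GRCh38.p14), 2755 by symbol, 1032 by an older symbol and 13255 by the array's own name. Probe positions are those of the files, in hg18. From other lists the text names every probe past 2-fold and the highest and lowest ratio among probes measured on both arrays, and TCF4, DES, ITGB6, the detected marker genes, CLDN1, CLDN7, CDH3, SMAD7 and the second ID2 probe were named after their values were seen. The values of a single gene in the marker lists are not reported here.

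The genes and lists were chosen with earlier results of these data known. With 1 array per condition no test was made, and the number of arrays limits the precision. Alternatives covered scaling, background correction (normexp with an offset of 50), filters and marked spots. On the SAS and eSAS arrays 69.4% and 67.5% of spots were well above background. Python 3.11.15, R 4.3.3 and limma 3.58.1 were used, and the counting was tested on simulated data. The simulation changed only probes brighter than CDH2 was in SAS cells. Changes in dim probes and lower bounds were therefore not covered by it.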

Additional observations from a re-analysis of the deposited data

How the results depend on the processing

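No paired analysis was possible because each condition has only 1 array, and the slide could not be used as a block because both arrays share it. The median log2 ratio of the 11 probes lay between -0.29 and -0.19 under all alternatives. The count of these probes at least 2-fold higher, 1 as reported, was 0 without background correction and under both normexp fits without marked local backgrounds, on mean and on median pixels, where CDH2 was at 0.90, 0.67 and 0.68. It was 3 under the normexp fit to all spots. The count at least 2-fold lower, 0 as reported, was 3 at 1.5-fold and 1 without a filter on dim probes, where the dim SNAI2 probe entered. In the other lists the count higher, 3 as reported, was 1 without background correction, 60 under normexp on all spots, and 0 under both other normexp fits. The count lower, 7 as reported, was 3 without background correction, 16 without a filter on dim probes, 4 with probes required above background on both arrays, and 2 under each of the 3 normexp fits. Under normexp on all spots CDH11, GSC and ID2 reversed to log2 ratios of 1.25, 1.73 and 2.52, and 11264 probes were at least 2-fold higher, while the median of all probes was 0.53. That fit includes 26 spots whose local background was marked on at least 1 of the arrays. Its background mean for the eSAS array was -773, against 6.02 without those spots. For the SAS array the means were -2.69 and -2.70. A mean that far below 0 raises the eSAS values before scaling, so the reversals under this fit say nothing on direction. For the 11 probes of the EMT factors and markers, 117 of the values under an alternative stayed within the SD of replicate spots and 19 did not. Leaving out rows 450 to 510 and taking single spots of CDH1 and FN1 were chosen after seeing the data. For probes near the background, which include CDH2, the value depends on the background correction, and no setting replaces a second culture.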
